A study of Oryctolagus cuniculus with 12 samples.

Results

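Neuropeptide Y (NPY) was read by 5 probes on a rabbit whole-genome oligonucleotide array, and its signal was followed over aortic rings of rabbits with and without coarctation of the aorta (CoA), a narrowing of the descending thoracic aorta. The probes, A_04_P003866 to A_04_P003870 and here probes 1 to 5, were all those whose RefSeq accession belongs to the rabbit gene NPY (gene identifier 100301542). NPY is 1 of the 1264 gene symbols that could be given to a probe, and its 5 probes are 5 of the 43603 different probes. It was chosen with its signal on these same arrays in view, so its own levels and differences are described and carry no test. In the RefSeq annotation of the rabbit assembly mOryCun1.1 the neighboring genes were STK31 and PALS2, and neither had a probe with a symbol. The array files name an older assembly, so no coordinates are given.

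NPY is a short amidated peptide that sympathetic nerves release together with noradrenaline. On vascular smooth muscle it constricts vessels and strengthens the response to noradrenaline through the Y1 receptor, and through receptors on the nerve ending it restrains further release. Besides neurons, the peptide is made in the adrenal medulla and, in some species, in megakaryocytes and platelets.

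Rings of about 4 mm were cut from the proximal thoracic aorta, upstream of the narrowing, of 12 male New Zealand white rabbits at 32 weeks of age, with 1 array and 1 dye (Cy3) per rabbit. In 4 CoA rabbits a permanent silk suture had been tied at about 10 weeks of age to give a pressure gradient of 20 mmHg. In 4 Corrected rabbits the same gradient was made at the same age with a degradable Vicryl suture, whose loss let the aorta widen again with some narrowing left. The 4 Control rabbits were non-experimental animals, so surgery itself and the narrowing cannot be told apart in either comparison with Control. All values are mRNA signals of a whole ring, in which more cells of a type and more RNA per cell cannot be told apart. Corrected replicate 3, which the study set aside as an outlier, entered normalization but not the comparisons, leaving 11 arrays.

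Detection of a probe on an array required both Feature Extraction flags for its spot, the one for a positive and significant signal and the one for being well above background. All 5 NPY probes passed the filter of detection on at least 8 of the 12 arrays. Probe 1 was detected on 9 arrays, probe 2 on 8, probe 3 on 10, probe 4 on 11 and probe 5 on all 12. Probe 5 (A_04_P003870) had the highest mean signal over the 11 arrays and stands for the gene below. Detection was complete for all 5 probes on every CoA array, whereas only 2 of the 5 were detected on the array of Control replicate 4 and 3 of the 5 on that of Corrected replicate 4.

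The NPY signal was lowest in Control, higher in Corrected and highest in CoA. On the quantile normalized log2 scale, probe 5 read 4.53, 4.62, 4.08 and 4.30 in Control replicates 1 to 4. It read 5.49, 8.02, 6.44 and 8.48 in CoA replicates 1 to 4. It read 5.66, 6.10 and 5.87 in Corrected replicates 1, 2 and 4. Each of these CoA and Corrected arrays thus lay above every Control array, while CoA replicate 1 lay below all 3 Corrected arrays and the other CoA arrays lay above them.

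**Figure D1:**
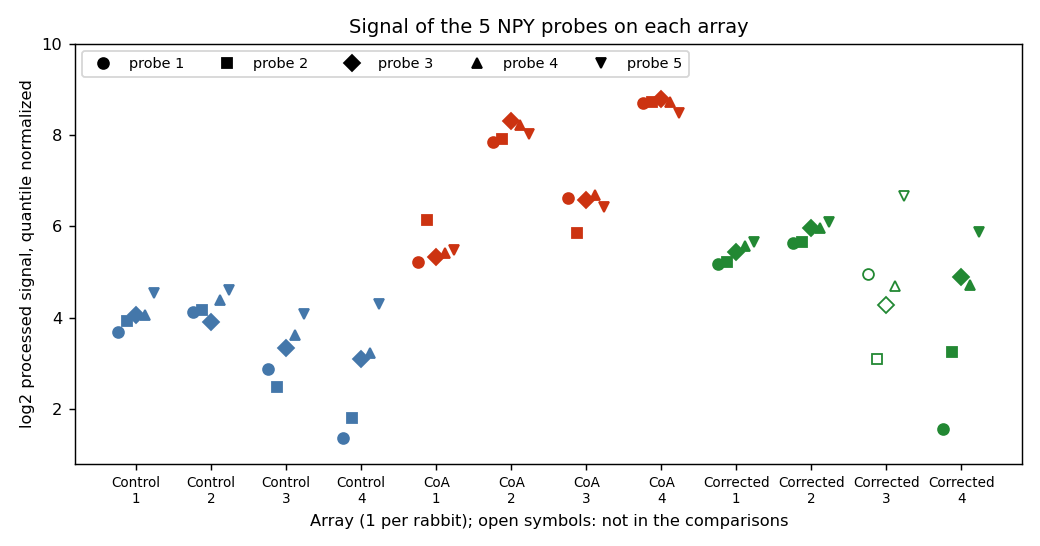
Quantile normalized log2 processed signal (vertical axis) of the 5 NPY probes on each of the 12 arrays (horizontal axis), with 1 symbol shape per probe and open symbols for Corrected replicate 3, which is not in the comparisons. The 5 probes lie close together on the arrays of CoA replicates 2 and 4 and spread over 2.95 and 4.31 log2 units on those of Control replicate 4 and Corrected replicate 4.

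Probe 5 averaged 4.38 ± 0.24 (SD, n = 4) over the Control rabbits, 7.11 ± 1.39 (SD, n = 4) over the CoA rabbits and 5.87 ± 0.22 (SD, n = 3) over the Corrected rabbits. The 4 CoA rabbits therefore varied far more among themselves, over a range of 2.99 log2 units, than the Control rabbits (0.54) or the Corrected rabbits (0.43). CoA exceeded Control by 2.72 ± 0.56 (SE) on the log2 scale, or 6.61-fold, with 16 of 16 pairs of rabbits in that direction. Among all 27283 probes tested, 6.87% had every CoA array above every Control array, and 8.81% changed at least 2-fold in either direction at an unadjusted limma p below 0.05, the criterion used here. NPY was selected on these values, so nothing is read from its place among those probes.

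Corrected exceeded Control by 1.49 ± 0.60 (SE) on the log2 scale, or 2.82-fold, with 12 of 12 pairs higher. The same control arrays served both comparisons, which are therefore not independent of each other. In this comparison 5.26% of all probes had every Corrected array above every Control array, and 5.39% passed the 2-fold criterion in either direction. CoA exceeded Corrected by 1.23 ± 0.60 (SE), or 2.35-fold, with 9 of 12 pairs higher and the groups overlapping, where 2.33% of all probes had every CoA array above every Corrected array and 2.77% passed the criterion in either direction. In the order Control, Corrected, CoA, the neighbors Corrected and CoA did not separate beyond their spread on probe 5. Without CoA replicate 4, the highest array, the difference between CoA and Corrected was 0.77, and without CoA replicate 1, the lowest, it was 1.77.

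The other 4 probes gave larger differences between CoA and Control, of 4.09 for probe 1, 4.06 for probe 2, 3.66 for probe 3 and 3.45 for probe 4, and on each of them all CoA arrays lay above all Control arrays. Between Corrected and Control they gave 1.11, 1.61, 1.83 and 1.60, and the groups overlapped on probes 1 and 2 because of Corrected replicate 4. On that array probe 1 read 1.56 and probe 2 read 3.25, neither of them detected, whereas probe 5 read 5.87. Between CoA and Corrected the differences were 2.98, 2.44, 1.83 and 1.85 for probes 1 to 4, and the groups separated on probe 2 only. The mean of the 5 probes gave 3.60, 1.53 and 2.07 for CoA minus Control, Corrected minus Control and CoA minus Corrected. On that mean all CoA arrays lay above all Control arrays. Corrected overlapped with Control, with 10 of 12 pairs higher, and CoA overlapped with Corrected, with 11 of 12 pairs higher.

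**Figure D2:**
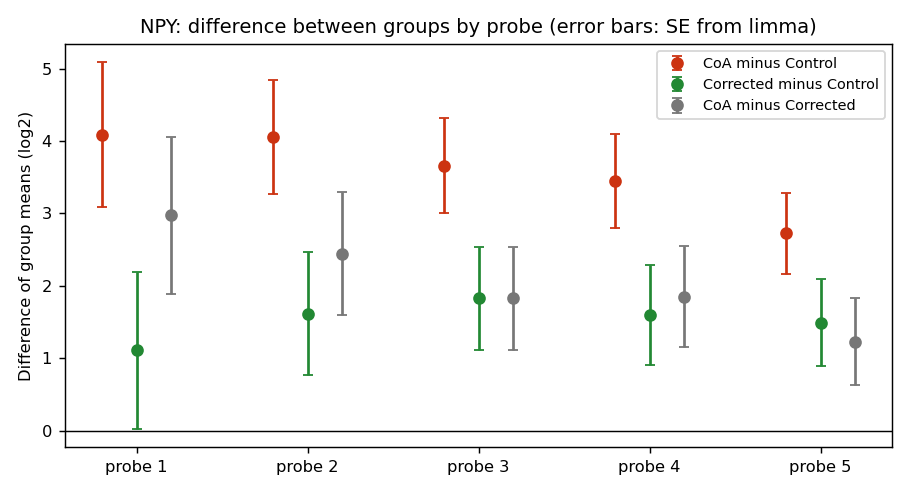
Difference of group means on the log2 scale (vertical axis) for each NPY probe (horizontal axis), in the 3 comparisons, with error bars of 1 SE from limma. CoA minus Control ranges from 2.72 on probe 5 to 4.09 on probe 1, and Corrected minus Control from 1.11 to 1.83.

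The probes followed each other across arrays, with Pearson's r from 0.84 to 1.00 over the 10 pairs of probes and 11 arrays. The r of the deviations from the group means was 0.61 to 0.99, so rabbits of a group that were high on 1 probe tended to be high on the others. These probes read the same RNA on the same arrays, and their likeness describes the measurement rather than more rabbits. On the array of CoA replicate 4 the 5 probes spanned 0.31 log2 units and on that of CoA replicate 2 they spanned 0.45, the narrowest spans of all arrays. The span was 2.95 in Control replicate 4, where probes 1 to 3 were not detected.

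The NPY probes were dim on these arrays, and their smallest values lay near background. Before normalization, the processed signal of probe 5 was 43.8, 27.3, 23.8 and 17.8 intensity units in Control replicates 1 to 4. It was 45.8, 114, 92.1 and 429 in CoA replicates 1 to 4 and 92.7, 97.8 and 48.3 in Corrected replicates 1, 2 and 4. Without normalization Corrected overlapped with Control on probes 1 to 4 and on the mean of the 5 probes, whereas CoA did not. On probe 5 both groups still did not overlap with Control, but CoA replicate 1 was only 0.06 log2 units above Control replicate 1. The uncorrected median pixel intensity of the spot did overlap, at 83 in Control replicate 1 against 68 in CoA replicate 1 and 76.5 in Corrected replicate 4, over local backgrounds of 16 to 23. CoA replicate 4 stood out on both scales, with a spot 18.2 times its local background, compared with 2.36 to 3.95 times in Control.

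**Figure D3:**
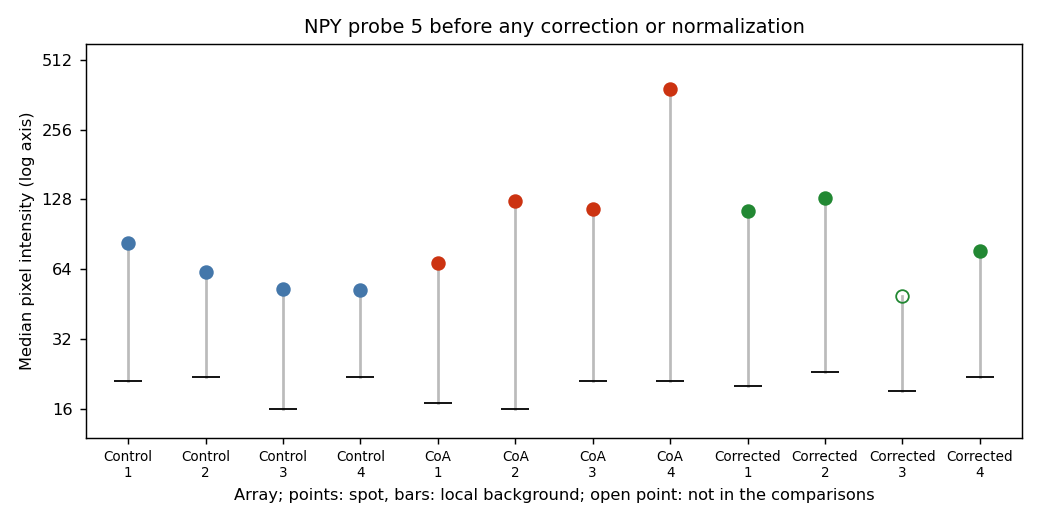
Median pixel intensity of the probe 5 spot (points) and of its local background (bars) on each array, on a log axis and before any correction or normalization. Control spots lie between 52 and 83 and CoA spots between 68 and 383, over backgrounds between 16 and 23.

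The size of the difference depended on how background was handled. With normexp correction of the median intensities and an offset of 50, CoA exceeded Control by 1.07 log2 units (2.10-fold) and Corrected exceeded Control by 0.38 (1.31-fold), while CoA exceeded Corrected by 0.69, and all arrays of both groups still lay above all Control arrays on probe 5. Scaling each array to its 75th percentile gave 2.81 and 1.66 in its place. This scaling moved the median of all probes by 0.22 in CoA minus Control and 0.13 in Corrected minus Control, against 0.06 and 0.03 with quantile normalization.

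Arrays differed in quality along with the groups. Spots well above background made up 69.7% to 77.7% of an array in Control, 55.8% to 69.7% in CoA and 61.8% to 68.5% in the 3 Corrected arrays used, and 0 spots were saturated. No slide label was used, and arrays with the same scan time in their headers were taken to lie on 1 slide. By that rule there were 4 slides, 1 of them with Control replicate 3 alone. All CoA arrays shared 1 slide with no other group, so slide and CoA cannot be told apart. A second slide held Control replicates 1, 2 and 4 beside Corrected replicate 2, and within it probe 5 read 6.10 in the Corrected rabbit against 4.30 to 4.62 in the Control rabbits. With slide as a fixed block, which rests on that slide alone, Corrected minus Control was 1.61.

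Genes around NPY were taken from lists of its family, receptors, processing enzymes, adrenergic receptors, other neuropeptides and Y1 receptor signaling. Of 104 such genes, NPY left out, 27 had a probe with a symbol and 19 were detected often enough to be tested. By the criterion, 2 of the 19 differed between CoA and Control, both lower in CoA, 1 differed between Corrected and Control, higher in Corrected, and 0 differed between CoA and Corrected. An unadjusted p under 0.05 alone was reached by 2, 2 and 0 of the 19. Of all probes tested, 8.81% met the criterion in either direction in CoA vs Control and 5.39% in Corrected vs Control. The criterion was met by 5.22% downward in CoA vs Control and by 2.41% upward in Corrected vs Control. Between CoA and Corrected it was met by 1.44% upward and 1.33% downward. After Benjamini-Hochberg adjustment 0 of the 19 genes and 0 of all 27283 probes passed in any comparison by limma, although 14.2%, 8.35% and 4.31% of all probes had an unadjusted p under 0.05. The median difference of the 19 genes was 0.17 in CoA minus Control and 0.15 in Corrected minus Control, compared with 0.06 and 0.03 over all probes.

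The related ligands PYY and PPY and the receptor NPY5R were not analysed here, and neither were the 24 listed genes of noradrenaline synthesis and sympathetic neurons, such as TH and DBH, or the 10 neurotrophins and their receptors, none of which had a probe with a symbol. The level of NPY in these rings can therefore not be set beside the markers that would define sympathetic nerve.

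Of the receptors, 4 of 5 were tested and 0 passed the criterion in any comparison. Of all probes, 8.81% passed it in CoA vs Control, 5.39% in Corrected vs Control and 2.77% in CoA vs Corrected, in either direction. NPY1R, the Y1 receptor through which the peptide constricts vessels, read 4.47, 6.04, 4.00 and 4.13 in Control, 5.76, 5.52, 5.29 and 4.97 in CoA, and 4.54, 5.34 and 4.71 in Corrected. Its difference was 0.73 ± 0.43 (SE) in CoA minus Control and 0.21 ± 0.47 in Corrected minus Control, and all 3 groups overlapped. Control replicate 2 lay above all CoA and Corrected arrays, and the other Control arrays lay below all of them. NPY2R, the main receptor on nerve endings, read 3.95, 3.89, 4.15 and 3.43 in Control and 4.21, 5.27, 4.16 and 4.53 in CoA. All its CoA arrays lay above all Control arrays, as they did for 6.87% of all probes, but the nearest values were 4.16 and 4.15. The difference of 0.69 ± 0.31 (SE) was under 2-fold, and its 4 probes, of which 2 were tested, gave 0.29 to 0.77. In Corrected it read 4.80, 4.27 and 4.00, overlapping with Control. That difference was 0.50 ± 0.34, and the 4 probes ranged from -0.95 to 0.50.

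NPY4R, which prefers pancreatic polypeptide, differed by -0.45 ± 0.36 (SE) in CoA minus Control and -0.25 ± 0.39 in Corrected minus Control. NPY6R, a Y receptor that is functional in the rabbit and not in humans, differed by 0.54 ± 0.51 and 0.54 ± 0.56. The median over the 4 receptors was 0.61 in CoA minus Control and 0.35 in Corrected minus Control, and the lowest adjusted p by limma was 0.353 and 0.735.

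Of the enzymes that cleave or degrade peptides, 2 of 9 were tested and 1 passed, lower in CoA than in Control. Of all probes, 5.22% passed downward in that comparison. The enzyme that passed was MME (neprilysin), a membrane protease that breaks down NPY among other peptides. MME read 7.33, 7.12, 7.11 and 7.22 in Control, 3.48, 2.84, 7.61 and 5.47 in CoA, and 7.43, 7.08 and 3.76 in Corrected. CoA replicates 1, 2 and 4 and Corrected replicate 4 were low, whereas CoA replicate 3 was above all Control arrays, and the probe was detected on 2 of the 4 CoA arrays. MME fell by 2.35 ± 1.02 (SE) in CoA relative to Control (unadjusted p = 0.042, adjusted p = 0.339 by limma), and its 3 probes gave differences from -2.80 to -2.35. Without Control replicate 1, Control replicate 2, Control replicate 3, Control replicate 4, CoA replicate 1 or CoA replicate 2 its unadjusted p by limma was 0.067 to 0.126. ACE, which converts angiotensin, differed by 0.17 ± 0.47 in CoA minus Control and 0.36 ± 0.50 in Corrected minus Control, and ANPEP was detected on 0 arrays and not tested.

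Adrenergic receptors respond to the noradrenaline that is released with NPY. ADRA1A read 7.26, 6.43, 6.43 and 5.58 in Control, 7.06, 9.25, 6.59 and 7.19 in CoA, and 7.54, 6.83 and 7.74 in Corrected. Its difference was 1.09 ± 0.56 (SE) in CoA minus Control (unadjusted p = 0.074, adjusted p = 0.390 by limma) and 0.94 ± 0.60 in Corrected minus Control, with overlapping groups, and its 5 probes ranged from -0.15 to 1.46 in the first. ADRA1D differed by 0.14 ± 0.56 and -0.20 ± 0.61. ADRA1B was detected on 0 arrays and ADRA2A on 5, so neither was tested.

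Among other vasoactive peptides and their receptors, 0 of 8 tested genes passed in CoA vs Control, where 8.81% of all probes passed in either direction. In Corrected vs Control, where 5.39% of all probes passed in either direction, 1 of 8 did. That gene, EDNRA, the endothelin receptor of smooth muscle, read 8.33, 7.59 and 9.48 in Corrected against 7.16, 7.55, 7.16 and 7.91 in Control, with overlapping groups. It rose by 1.02 ± 0.42 (SE; unadjusted p = 0.035, adjusted p = 0.570 by limma). Only 1 of its 3 probes was tested, and the others, detected on 0 and 1 arrays, gave 0.01 and -0.27. Without Corrected replicate 4, its highest array, the difference was 0.51 (unadjusted p = 0.185 by limma), and without Corrected replicate 1, Control replicate 1 or Control replicate 3 the unadjusted p was 0.055, 0.077 and 0.078. In the same list, TAC1, the precursor of substance P, read 5.70, 4.92 and 5.71 in Corrected and 4.88, 4.44, 3.97 and 4.90 in Control. All its Corrected arrays lay above all Control arrays, as they did for 5.26% of all probes, with a difference of 0.90 ± 0.40 (SE; unadjusted p = 0.046, adjusted p = 0.591 by limma) that was under 2-fold. CCKBR, a cholecystokinin receptor, was separated in the same way, with a difference of 0.75 ± 0.40.

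Downstream of the Y1 receptor, 3 of 16 listed genes were tested. ADCY5, an adenylyl cyclase that inhibitory G proteins restrain, read 5.66, 5.17, 6.64 and 6.70 in Control and 4.67, 4.54, 5.13 and 4.29 in CoA. All its CoA arrays lay below all Control arrays, which held for 3.38% of all probes, although the nearest values were 5.13 and 5.17. It fell by 1.38 ± 0.44 (SE; unadjusted p = 0.009, adjusted p = 0.269 by limma), and both its probes were lower, by -1.38 and -1.15. In Corrected it read 6.10, 4.92 and 4.51, for a difference of -0.86 ± 0.47 relative to Control. This call remained past the criterion when any 1 of the 11 arrays was left out, with unadjusted p from 0.003 to 0.031 by limma. PRKCB, a protein kinase C, read 10.65, 9.21, 9.90 and 9.96 in Control and 8.55, 8.99 and 9.05 in Corrected, so that all Corrected arrays lay below all Control arrays, as they did for 3.59% of all probes. Its difference of -1.07 ± 0.55 (SE) did not pass the criterion (unadjusted p = 0.078, adjusted p = 0.642 by limma).

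**Figure D4:**
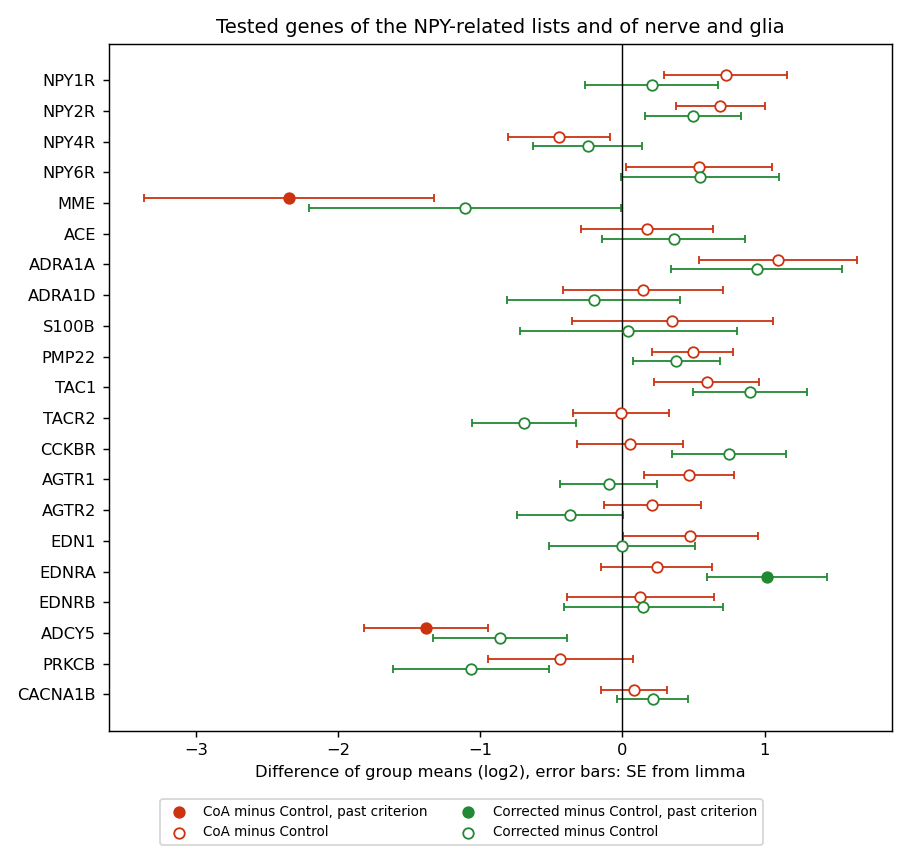
Difference of group means on the log2 scale (horizontal axis, error bars 1 SE from limma) for each tested gene of the lists around NPY and of nerve and glia (vertical axis), CoA minus Control in red and Corrected minus Control in green, with filled points past the criterion of a 2-fold change and an unadjusted p under 0.05. MME and ADCY5 lie at -2.35 and -1.38 in CoA, and EDNRA at 1.02 in Corrected.

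Nerve and glial genes were the marker list nearest to the known source of NPY. Of its 20 genes reported here, 2 had a probe with a symbol. S100B, a calcium-binding protein of Schwann cells and also of adipocytes, read 10.26, 8.82, 9.38 and 9.46 in Control, 7.84, 10.01, 10.94 and 10.54 in CoA, and 10.31, 10.24 and 8.01 in Corrected. It differed by 0.35 ± 0.71 (SE) in CoA minus Control and 0.04 ± 0.76 in Corrected minus Control. The groups overlapped, and the lowest arrays were CoA replicate 1 and Corrected replicate 4. CoA replicate 1 was also the lowest CoA array for NPY on 4 of the 5 probes, and Corrected replicate 4 the lowest of the 3 Corrected arrays for NPY on probes 1 to 4 but not on probe 5. Other arrays differed in order. CoA replicate 3 was highest for S100B at 10.94 but read 6.44 on NPY probe 5, below CoA replicates 2 and 4. Control replicate 1 exceeded CoA replicate 2 for S100B, at 10.26 against 10.01, but not for NPY, at 4.53 against 8.02. PMP22, a myelin protein that other cells also make, differed by 0.49 ± 0.28 and 0.38 ± 0.31, and 0 of these 2 genes passed the criterion in any comparison. The summed signal of both was 12.38 to 13.03 in Control, 13.03 to 13.66 in CoA and 12.71 to 13.61 in Corrected on the log2 scale, most of it from PMP22. Its part in the NPY signal was not tested.

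Markers of other cell types also moved with the groups. Of 10 macrophage and myeloid markers 5 had a probe with a symbol. Their summed log2 signal was 11.56 to 13.32 in Control, 13.45 to 14.59 in CoA and 13.38 to 14.81 in Corrected. SPP1 (osteopontin), made by activated macrophages and by smooth muscle cells, read 12.48, 10.83, 9.60 and 9.40 in Control and 13.43, 13.47, 12.48 and 14.37 in CoA. It was the 1 of 4 tested genes of the list that passed the criterion, higher by 2.86 ± 0.65 (SE) in CoA and by 1.95 ± 0.70 in Corrected than in Control, and the median of the list was 0.42 and 1.26. Over all probes 3.59% were higher in CoA by the criterion and 2.41% were higher in Corrected. CD14, CCL2 and MMP9 differed by 0.36, 0.47 and -0.14 in CoA and by 0.53, 1.16 and 1.36 in Corrected. CCL2 read 14.49 in Corrected replicate 1, where SPP1 read 11.89. CD68, a defining marker, was not analysed here for want of a probe with a symbol.

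Brown adipocyte markers, of which 2 of 7 genes had a probe with a symbol, went the other way. Their summed log2 signal was 5.72 to 7.69 in Control, 4.66 to 5.63 in CoA and 5.13 to 5.50 in Corrected. UCP1, the defining protein of brown fat, was detected on 7 arrays, of which 4 were the Control arrays, and was not tested. The other adipocyte markers, 6 of 10 genes, summed to 14.74 to 15.86, 13.87 to 15.11 and 14.36 to 16.14, with a median difference of -1.50 in CoA and -0.64 in Corrected. Of the 6, 2 were lower in CoA by the criterion, which 5.22% of all probes met, and 1 in Corrected, where 2.98% of all probes met it. PPARG, the regulator of fat cell genes, fell by 3.17 ± 0.89 (SE) in CoA and by 2.29 ± 0.96 in Corrected, where the difference was -1.34 without Corrected replicate 4. ADIPOQ, which encodes adiponectin, fell by 2.99 ± 0.98 in CoA, where its probe was detected on 2 of the 4 arrays. LPL, RBP4 and SLC2A4 differed by -1.49, -1.05 and -1.51 in CoA and by -0.60, -0.23 and -0.67 in Corrected, without passing the criterion. LEP went the other way, by 0.17 in CoA and 0.26 in Corrected, and did not pass either. How much fat around the aorta each ring held is not given in the sources used here.

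Skeletal muscle markers (7 of 10 genes) summed to 8.89 to 10.38 in Control, 10.65 to 15.44 in CoA and 11.69 to 12.07 in Corrected, and cardiac muscle markers (5 of 10) to 13.80 to 14.61, 14.77 to 16.88 and 14.50 to 16.02. TNNC2, fast skeletal troponin C, was higher by 3.12 ± 0.88 (SE) in CoA and 2.56 ± 0.95 in Corrected, and TNNC1, the slow and cardiac form, by 3.31 ± 0.99 and 2.38 ± 1.07. Most of the skeletal muscle sums in CoA came from TNNC2. Of the 6 skeletal muscle genes tested, TNNC2 and CKM were higher in mean in CoA than in Control. CKM read 3.87, 13.28, 4.79 and 4.71 in CoA and 6.43, 4.52, 5.03 and 5.61 in Control. Only CoA replicate 2 lay above all Control arrays for CKM. MYH1, ATP2A1, TNNI2 and RYR1 differed by -0.31, -0.80, -0.97 and -0.45, so that the median of the list was -0.38. PLN, phospholamban, was higher by 1.39 ± 0.43 in CoA. MYH1 and ATP2A1, of fast skeletal muscle, were lower in CoA than in Corrected, by -3.14 ± 0.81 and -2.62 ± 0.84, although the ATP2A1 probe was detected on 1 of the 4 CoA arrays. For MYH1 all CoA arrays lay below all Corrected arrays, as they did for 1.90% of all probes, and MYH1 was higher by 2.82 ± 0.81 in Corrected than in Control. It read 7.33, 9.96 and 5.28 in Corrected, and without replicate 2, the highest, the difference was 1.60 from Control and -1.92 in CoA minus Corrected, and that of ATP2A1 was -1.48. CoA replicate 2, the second highest array for NPY, held the highest sums of both muscle lists, while CoA replicate 4, the highest for NPY, had 10.53 for TNNC2 against 15.07 in replicate 2.

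For platelet and megakaryocyte markers, which include a known source of the peptide, 2 of 6 genes had a probe with a symbol. They summed to 11.50 to 12.81 in Control, 11.78 to 12.73 in CoA and 12.38 to 13.38 in Corrected. ITGB3, integrin beta 3, was higher by 1.00 ± 0.40 (SE) in Corrected and differed by 0.31 ± 0.37 in CoA. Of 11 T cell and thymus markers 5 had a probe with a symbol. Only RAG2 was tested, with a difference of 1.21 ± 0.54 in CoA and 0.11 ± 0.59 in Corrected. The first was 0.70 without CoA replicate 2. CD3E and CD247, chains of the T cell receptor complex, were detected on 6 and 7 arrays, of which 4 were the Control arrays, and were not tested. CD3E read 4.86 to 6.84 in Control, 2.10 to 5.35 in CoA and 1.21 to 4.35 in Corrected, and CD247 read 5.08 to 7.13, 2.91 to 5.34 and 2.83 to 5.06. CD4 and CD28, each detected on 7 arrays and also not tested, did not fall in CoA. Relative to Control, CD4 differed by 0.29 in CoA and -0.12 in Corrected, and CD28 by 0.37 and 0.34. The summed log2 signal of the 5 genes was 7.11 to 8.31 in Control, 6.37 to 8.12 in CoA and 5.86 to 6.80 in Corrected, lower in all Corrected arrays than in all Control arrays. The smooth muscle markers that define the aortic media were bright on all arrays, with sums of 16.57 to 17.68 in Control, 16.64 to 17.82 in CoA and 17.55 to 17.80 in Corrected, and CALD1, the brightest, differed by 0.53 ± 0.30 and 0.67 ± 0.32. Endothelial markers summed to 12.83 to 13.92, 12.43 to 14.00 and 13.61 to 13.70, and their brightest, VCAM1, differed by -0.40 ± 0.40 and 0.06 ± 0.43. No B cell marker had a probe with a symbol.

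None of these marker differences passed adjustment by limma. For those past the criterion the adjusted p was 0.217 to 0.348 in CoA vs Control, 0.442 to 0.595 in Corrected vs Control and 1.00 for MYH1 and ATP2A1 in CoA vs Corrected. The differences of SPP1, PPARG, ADIPOQ, TNNC1, TNNC2 and PLN between CoA and Control and of MYH1 and ATP2A1 stayed past the criterion whichever array was left out. Under other settings ADIPOQ missed it with normexp, and MYH1 in Corrected vs Control missed it with all 12 arrays. The difference of RAG2 missed it without Control replicates 1, 3 or 4, CoA replicates 2 or 4 or Corrected replicate 2. Between Corrected and Control, SPP1 missed the criterion without Control replicates 3 or 4 or Corrected replicate 2, PPARG without Control replicates 1, 3 or 4 or Corrected replicates 2 or 4, and ITGB3 without Control replicates 1 or 4 or Corrected replicates 1 or 4. TNNC2 missed it without Control replicates 3 or 4 or Corrected replicates 1 or 4, and TNNC1 without Control replicates 2, 3 or 4, CoA replicates 1 or 3 or Corrected replicates 1 or 4. The part of any of these cell types in the NPY signal was not tested.

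The genes whose signal was most like that of NPY were ranked by Pearson's r with probe 5 over the 11 arrays, among 952 genes with a symbol. The arrays share the group differences, the slides and the normalization, so the r values are descriptions and no p is given. WNT11, a secreted Wnt ligand, came first with r = 0.90, a Spearman's rho of 0.96 and an r of 0.77 for the deviations from the group means. Its log2 signal was 5.04, 4.93, 4.60 and 4.40 in Control, 5.08, 6.28, 5.31 and 5.69 in CoA, and 5.15, 5.43 and 5.19 in Corrected. As with NPY, CoA replicates 2 and 4 were the highest CoA arrays and all CoA and Corrected arrays lay above all Control arrays, but over a range of 1.88 log2 units where NPY covered 4.40. WNT11 was picked by its r on these same arrays, so this shared order is part of the ranking and no separate result. Every CoA array lay above every Control array for 6.87% of all probes, and every Corrected array for 5.26%.

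SCN9A, a voltage-gated sodium channel of sensory and sympathetic neurons, followed with r = 0.83, and both its probes gave 0.83. Its deviations from the group means correlated with those of NPY at 0.51, and without CoA replicates 4 and 2, the arrays farthest from the median of NPY, its r was 0.60. CLDN1, a tight junction protein, NPSR1, the receptor of neuropeptide S, and SPP1 had an r of 0.81. WFDC2, a secreted protease inhibitor family member, PLA2R1, a phospholipase A2 receptor, TRPC5, a cation channel, and ROMO1, a mitochondrial membrane protein, had 0.80, and HGF, hepatocyte growth factor, had 0.78. SPP1 read 11.89, 13.06 and 12.62 in Corrected and HGF read 5.96, 6.32, 5.41 and 5.41 in Control against 7.09, 7.80, 7.13 and 7.66 in CoA and 6.43, 7.86 and 8.19 in Corrected.

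Within groups the likeness was lower for these genes, with r of the deviations from 0.33 for TRPC5 to 0.77 for WNT11. Other probes of the same gene did not always follow NPY, and the probes of CLDN1 ranged from 0.00 to 0.81 and those of WFDC2 from 0.20 to 0.80. The 3 probes of PLA2R1 ranged from 0.26 to 0.80 and those of TRPC5 from -0.05 to 0.80. The 5 probes of NPSR1 ranged from 0.70 to 0.85 and the 3 of HGF from 0.67 to 0.78.

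At the other end, SPRR3, a cornified envelope protein, had r = -0.88, but its 6 probes ranged from -0.88 to 0.68. DIO2, the deiodinase that activates thyroid hormone in brown fat, also had r = -0.88, its 5 probes ranged from -0.88 to -0.78, and its deviations from the group means gave -0.87. DIO2 read 5.82, 5.14, 5.53 and 5.52 in Control, 5.40, 4.01, 5.02 and 4.13 in CoA, and 5.08, 4.54 and 4.39 in Corrected. The CoA rabbits with the most NPY signal, replicates 2 and 4, were thus those with the least DIO2 signal, in a gene likewise picked by this ranking. CYP7A1, the rate-limiting enzyme of bile acid synthesis, had -0.84 with probes from -0.84 to 0.26, HMGB1, a chromatin protein, had -0.81 with all 5 probes from -0.83 to -0.81, and CYP2C, whose family members are alike in sequence so that the probe's gene is uncertain, had -0.82.

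**Figure D5:**
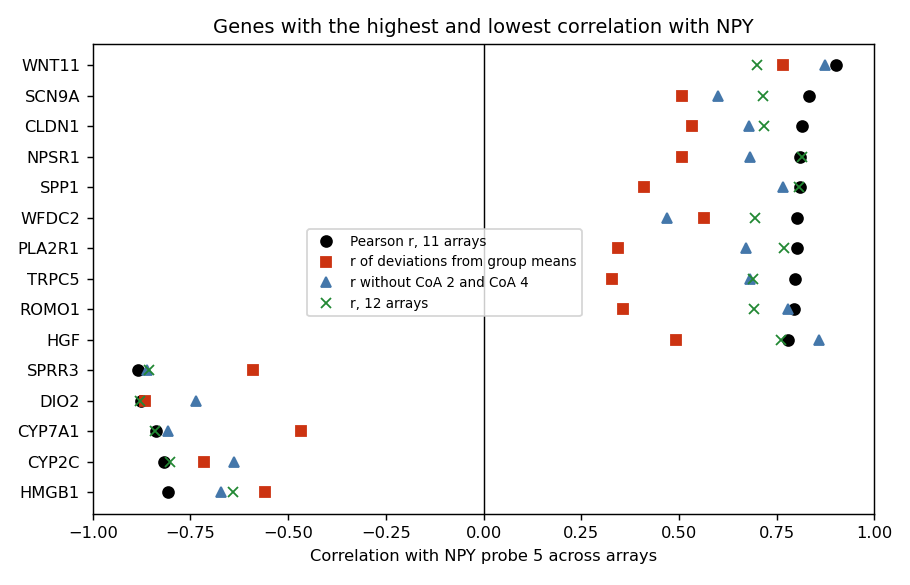
Correlation with NPY probe 5 across arrays (horizontal axis) for the 10 genes with the highest and the 5 with the lowest Pearson's r (vertical axis), as r over 11 arrays, r of the deviations from the group means, r without CoA replicates 2 and 4, and r over 12 arrays. WNT11 and DIO2 keep values of 0.77 and -0.87 within groups, while TRPC5 drops to 0.33.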

How the data were processed

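Aortic rings of 12 rabbits (4 Control, 4 CoA, 4 Corrected) were measured on 1-color arrays. Scans were read with Feature Extraction 11.0.1.1, per the submitters' processing notes. Linear intensity values were deposited for each spot, as a background-subtracted processed signal and as uncorrected medians of spot and background, together with spot flags and with no normalization between arrays. With 3 or 4 arrays a group, their number limits the precision, as does background for dim probes.

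Processed signals were log2 transformed, quantile normalized over 12 arrays and averaged per probe, without control and outlier-flagged spots. Symbols came from RefSeq accessions through the table of mOryCun1.1, for 3368 of 43603 probes. The 27283 probes detected on at least 8 arrays were fitted in limma 3.58.1 (R 4.3.3) over 11 arrays and all groups, as in the study's design. Calls needed a 2-fold change and an unadjusted p under 0.05, two-sided, with Benjamini-Hochberg adjustment over all probes beside it. A gene was its brightest probe. Named were the NPY probes, measured genes of the lists nearest to NPY, called or brightest members of the other lists, and the 10 highest and 5 lowest correlations. NPY, the lists and the tests were chosen with earlier results of these data known.

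Alternatives were other scaling, background, filter, array sets, probes, blocks, array weights and leaving out each array. Random blocks used statmod 1.5.0, and tables and plots used matplotlib 3.10.9, numpy 2.4.6 and pandas 2.3.3 under Python 3.11.15. The fit was tested on simulated data with 200 changed probes. Replicate numbers did not pair the samples, with correlations of deviations from -0.44 to 0.45 over 10 pairs. 1 gene of the lists is not reported here.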

Additional observations from a re-analysis of the deposited data

Results flagged for a closer look

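Corrected replicate 3, the rabbit left out of the comparisons, also held NPY signal above that of all Control arrays on 4 of the 5 probes, with a quantile normalized log2 value of 4.96 on probe 1, 4.28 on probe 3, 4.70 on probe 4 and 6.67 on probe 5. The highest Control values were 4.13, 4.06, 4.38 and 4.62. Only 1 of the 5 probes was detected there, 45.6% of its spots were well above background, and its unnormalized processed signal on probe 5 was 23.2, within the Control range of 17.8 to 43.8.

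Single arrays stood apart within a group for 4 of the named genes, by a gap test that chance alone passes in about 1 group in 20. Over 92 groups tested, 5 were found. In Control, replicate 4 was high for ANPEP at 1.87 against 1.19 to 1.29 on the others, where the probe was not detected, and low for ADRA1D at 3.10 against 4.66 to 4.93. ROMO1 was low in Control replicate 1, at 13.97 against 14.12 to 14.15, and in CoA replicate 1, at 14.42 against 14.75 to 14.78. PLN was high in CoA replicate 2, at 13.41 against 12.14 to 12.23, the array that also held the highest sums of skeletal and cardiac muscle markers. No NPY probe was among them.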

How the results depend on the processing

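The sign of all 3 NPY differences stayed the same under all 26, 27 and 26 alternatives run. Some of these could not move a difference, such as leaving out an array of the group not compared or fitting only the groups compared. NPY was also chosen on these values, so the count of settings is a description only. CoA minus Control was 1.07 with normexp and 4.09 and 4.06 on probes 1 and 2, and 2.27 to 3.26 when 1 array was left out, lowest without CoA replicate 4 and highest without CoA replicate 1. Corrected minus Control was 0.38 with normexp, 1.11 on probe 1 and 1.83 on probe 3, and 1.38 to 1.60 when 1 array was left out. CoA minus Corrected was 0.69 with normexp, 2.98 on probe 1, 2.44 on probe 2, and 0.77 to 1.77 when 1 array was left out. The cause was not tested.

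The count of genes around NPY past the criterion changed with many settings. In CoA vs Control, 2 became 0 with normexp, detection on all 12 arrays or adjusted p, 1 with Control replicates 3 and 4 as 1 sample or scan day as a block, 4 without a detection filter, and 1 to 3 when 1 array was left out. In Corrected vs Control, 1 became 0 with 75th percentile scaling, normexp, slide or scan day as a fixed block, or adjusted p, stayed 1 with slide as a random block, and became 5 with all 12 arrays, 4 with all 12 arrays and array weights, and 0 to 3 when 1 array was left out. In CoA vs Corrected, 0 became 2 with all 12 arrays, and 0 to 1 when 1 array was left out. Over all lists, 18 calls were made and 8 of them were lost without at least 1 array.

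Replicate numbers did not pair the rabbits. With the replicate number as a block, the NPY differences were 2.72, 1.33 and 1.39, the count in CoA vs Control was 1 and that in Corrected vs Control 0. Of the 10 genes most like NPY, 4 stayed among the top 10 by Spearman's rho, 1 by deviations from group means, 2 without CoA replicates 4 and 2, 4 over all 12 arrays and 3 with 75th percentile scaling.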
